A study of Mus musculus with 12 samples.

Results

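The comparison of LCN13 shRNA with control virus in abdominal fat set 6 of the 12 arrays of the study against each other. Of these, 3 were labelled Lipocalin13 shRNA (replicates 5, 6 and 8) and 3 NC shRNA (replicates 1, 2 and 3). All 12 arrays entered the fit that estimated the spread of each gene. All 23185 probe sets that carried 1 gene symbol were tested, of 25206 on the array. The animals, BKS.Cg-Dock7m +/+ Leprdb/J mice, belong to a strain that carries the db mutation of the leptin receptor gene. The labels do not state how many copies each animal carried, and the genotype field reads WT for the control group and knockdown for the others. Mice aged 12 weeks were given adenoviruses that express a short hairpin RNA (shRNA), and tissue was taken 1 week later. The 3 control animals received 4e9 plaque-forming units (pfu) of virus with a control shRNA, and the 3 LCN13 animals received 2e9 of LCN13 shRNA virus plus 2e9 of control virus. A TSC22D4 group received 2e9 of TSC22D4 shRNA virus plus 2e9 of control virus, and a combined group had both gene-directed viruses at 2e9 each without any control virus. Each group held 7 animals, from which the submitters picked 3 that they describe as representative. The labels name neither the route of injection nor the tissue the virus reached. Since control virus was 4e9 pfu in the controls and 2e9 pfu in the LCN13 group, the presence of the LCN13 hairpin and the smaller amount of control virus cannot be told apart in this comparison.

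LCN13 is a secreted lipocalin, a small carrier of fatty molecules, that is made by the liver in mice and is known for effects on glucose handling and insulin sensitivity. TSC22D4, a protein of the TSC22 family, is known in liver as a regulator of lipid and glucose metabolism. Cells that meet viral RNA or DNA sense it with helicases and other receptors, which switch on type I interferons through transcription factors of the interferon regulatory factor (IRF) family. Interferon then acts through its receptor, Jak kinases and transcription factors on a large set of antiviral genes, and adenoviral vectors are known to switch this program on.

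The level of a gene is given on the log2 scale of the deposited values, where a difference of 1 is a doubling, and each change is the LCN13 mean minus the control mean. A gene passed when limma's Benjamini-Hochberg adjusted p over all 23185 genes was under 0.05. The lowest levels on these arrays carry no information: 1354 olfactory and vomeronasal receptor probe sets, which fat is not known to use, had a median of 5.73 and a 95th percentile of 6.01. The tissue label was checked against 7 fat cell markers, whose mean level lay between 13.16 and 13.28 on all 12 arrays. Fabp4, the fatty acid binding protein of fat cells, lay at 13.97, 13.94 and 14.01 in control and at 14.01, 13.99 and 14.11 with LCN13 shRNA. Arrays correlated between 0.994 and 0.998 within the 2 groups and between 0.992 and 0.994 across them.

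The targeted gene, which the array lists as Obp2a, could not check the labels. Obp2a lay at 5.72, 5.74 and 5.73 in control and at 5.71, 5.74 and 5.71 with LCN13 shRNA (change -0.01, SE 0.02, adjusted p = 0.858). All 6 values sit at the median of the olfactory receptors. Of 9 measured genes for lipocalins and related carriers, 0 passed in either direction. Lcn2, which binds bacterial iron carriers, lay at 11.33, 12.23 and 12.66 in control and at 12.69, 12.65 and 12.69 with LCN13 shRNA (adjusted p = 0.458). Tsc22d4 was at 7.60, 7.57 and 7.88 in control and at 7.59, 7.74 and 7.67 with LCN13 shRNA (change -0.02, adjusted p = 0.972), with groups that overlap.

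LCN13 replicates 5 and 6 are much alike and differ from replicate 8 in some marker lists. Of the 66 pairs among the 12 arrays they were the most alike, with an SD of 0.165 for their difference over 11649 brighter probe sets, against 0.190 for the next pair. Replicate 8 differed by 0.215 from replicate 5 and by 0.257 from replicate 6, and the control pairs by 0.220 to 0.288. The mean level of 12 mesothelial markers, genes of the lining of the abdominal cavity, was 8.12 and 8.13 on replicates 5 and 6 and 7.36 on replicate 8, against 7.62, 7.22 and 7.43 in control. On replicates 5 and 6 all 12 markers lay above the median of the 9 arrays outside the LCN13 group, and on replicate 8 there were 3. Gpm6a, a membrane glycoprotein of this lining, lay at 9.71, 8.73 and 9.09 in control and at 10.56, 10.54 and 9.22 with LCN13 shRNA. Of the 12 markers 0 passed. Their median change was 0.44, and -0.10 without replicates 5 and 6. The red blood cell markers had means of 6.99 on both replicates 5 and 6 and 8.05 on replicate 8, against 7.95, 7.28 and 6.81 in control. Liver markers had means of 7.27, 7.32 and 6.98, against 6.96, 6.67 and 7.04 in control and 7.28 on replicate 13 of the combined group. The labels describe separate animals, and whether replicates 5 and 6 share a source was not tested. Counted as 1, they would leave the LCN13 group with 2 samples, which is why a fit with their average is given beside the main counts. Without both, replicate 8 is the only LCN13 array, and calls lost there cannot be told apart from the loss of arrays. The part of these differences in the results was not tested beyond giving counts without 1 of them or with their average, and changes without both.

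**Figure D1:**
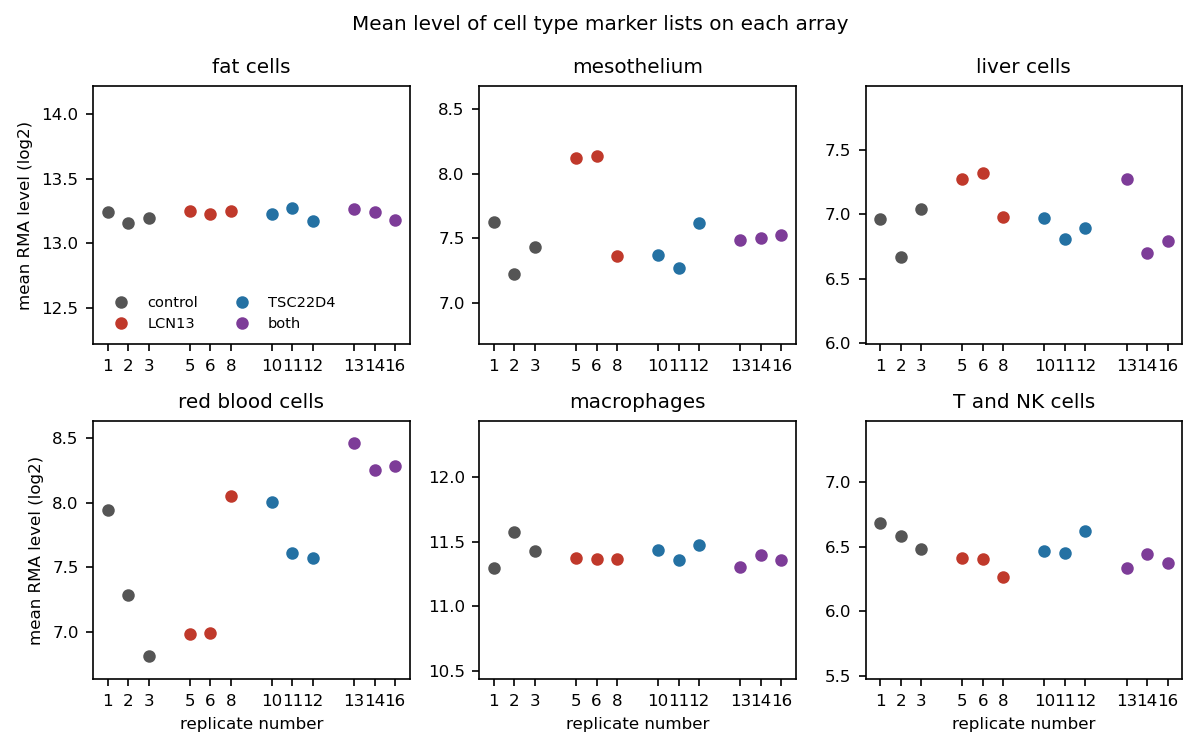
Mean log2 level of the markers of 6 cell types on each array (x axis, replicate number; y axis, 1 point per array, each panel spanning the same log2 range; colours, groups). Fat cell markers lie between 13.16 and 13.28 throughout, while the mesothelial mean is 8.12 and 8.13 on LCN13 replicates 5 and 6 and 7.36 on replicate 8.

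With LCN13 shRNA, 333 genes passed in the fit of all 12 arrays (1.44% of those tested), 92 higher (0.397%) and 241 lower (1.04%). Among the lower genes 78 fell at least 2-fold, and among the higher genes 0 rose that far. The median change was -0.70 for the lower and 0.27 for the higher genes, against 0.0040 over all genes. In all 333 the 3 arrays of one group lay beyond the 3 of the other, as they did lower in 6.93% and higher in 8.75% of all genes tested. The lower genes lasted better than the higher ones when arrays were left out: 142 of 241 lower and 20 of 92 higher genes passed in each of the 12 fits that left out 1 array. Leaving out replicates 5 and 6 together leaves 1 LCN13 array, so no count of calls is given for that fit. With these 2 arrays averaged into 1, an alternative chosen after the data were seen, 162 lower and 32 higher genes kept their call. After cyclic loess between the arrays, 52 of 315 passing genes were higher (16.5%, against 27.6% here). A fit of the 6 compared arrays alone passed 102 genes, 15 higher and 87 lower.

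The genes that fell were led by the interferon response. Of 60 measured genes on 3 lists (sensors and transcription factors, antiviral effectors, and the ISG15 pathway), 49 fell (81.7%, against 1.04% of all genes), 1 rose and 10 did not pass. At least 2-fold decreases were found for 36, and the median change of the 60 was -1.27. Their mean level was 10.20, 10.47 and 10.16 in the controls and 8.84, 8.82 and 8.82 with LCN13 shRNA. The LCN13 arrays are thus close to each other, including replicate 8, and all far below the controls. Leaving out 1 array at a time ended 4 of the 49 calls. Without replicates 5 and 6 the median change was -0.80 for the sensors, -1.36 for the effectors and -0.85 for the ISG15 pathway.

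The promoters of 4 of the 5 most strongly lowered genes, those that hold the motif described here, are shown because interferon-induced genes are known to be switched on through a DNA element to which IRF proteins bind. Each run is the 250 bases before an annotated start from RefSeq (build GRCm38.p6, on the gene's strand). Where a gene has several such starts, the one with the most matches was taken. The motif in capitals reads GAAA, any 2 bases, GAAA, or TTTC, any 2 bases, TTTC where it lies on the other strand. Oas1g is at chr5:120887614-120887863 (minus strand), Oas3 at chr5:120777660-120777909 (minus), Ifi213 at chr1:173599273-173599522 (minus) and Ifit1 at chr19:34640639-34640888 (plus).
Oas1g: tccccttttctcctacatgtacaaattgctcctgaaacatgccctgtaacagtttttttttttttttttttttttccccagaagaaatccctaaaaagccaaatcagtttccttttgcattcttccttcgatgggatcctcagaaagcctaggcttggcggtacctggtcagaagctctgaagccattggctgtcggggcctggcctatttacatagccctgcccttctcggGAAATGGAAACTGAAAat
Oas3: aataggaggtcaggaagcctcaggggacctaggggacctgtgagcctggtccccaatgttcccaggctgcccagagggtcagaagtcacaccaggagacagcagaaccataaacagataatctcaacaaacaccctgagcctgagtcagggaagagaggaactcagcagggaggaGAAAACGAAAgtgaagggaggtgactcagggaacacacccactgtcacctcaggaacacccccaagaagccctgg
Ifi213: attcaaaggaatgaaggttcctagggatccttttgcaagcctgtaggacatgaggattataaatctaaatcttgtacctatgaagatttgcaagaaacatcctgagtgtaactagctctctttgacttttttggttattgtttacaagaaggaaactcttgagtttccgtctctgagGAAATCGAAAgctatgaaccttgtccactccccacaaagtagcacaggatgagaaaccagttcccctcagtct
Ifit1: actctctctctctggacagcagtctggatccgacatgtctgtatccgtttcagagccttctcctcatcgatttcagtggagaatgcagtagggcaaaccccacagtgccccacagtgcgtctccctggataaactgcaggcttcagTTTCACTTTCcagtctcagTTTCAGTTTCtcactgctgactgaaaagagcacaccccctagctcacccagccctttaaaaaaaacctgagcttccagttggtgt
In Oas1g 2 overlapping matches begin 18 and 12 bases before the start, in Ifit1 2 begin 104 and 85 bases before it, and single matches begin 75 bases before the start of Oas3 and 73 before that of Ifi213. The motif was searched on both strands of these 250 bases in every tested gene with a promoter in the table. A gene was counted when any of its annotated starts had a match. It occurred in 594 of 17452 such genes (3.4%), in 43 of 191 that fell (22.5%) and in 0 of 72 that rose. Of the genes that fell, it was found in 17 of 39 on the interferon lists (43.6%) and in 26 of 152 outside them (17.1%). Ifi209, the remaining one of the 5 most lowered genes, is not printed because its promoter held no match. Among the 15 most strongly lowered genes, 11 had a promoter in the table and 6 of these held the motif, Trim30a and Trim30d besides those printed. A match describes letters and is no measured binding site.

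Antiviral effectors fell most, with 37 of 40 lower (1.04% of all genes were), 0 higher and a median change of -1.35. Oas1g, an oligoadenylate synthetase, a family that senses double-stranded RNA and activates the nuclease RNase L, lay at 9.90, 10.53 and 9.98 in control and at 6.43, 6.48 and 6.32 with LCN13 shRNA. It was 13.3-fold lower (change -3.73, SE 0.17, adjusted p = 8.17e-06). Its relative Oas3 fell from 9.40, 10.40 and 9.90 to 6.42, 6.33 and 6.46 (change -3.50, SE 0.20). On all 3 LCN13 arrays both genes lay near the lower end of the scale, where real differences are compressed. Other family members fell less, with changes of -2.18 for Oas2, -2.20 for Oasl1, -1.44 for Oasl2 and -1.29 for Oas1a.

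Ifi213, of the mouse Ifi200 family of DNA-sensing proteins, fell from 9.39, 9.98 and 9.24 to 6.11, 6.20 and 6.33 (change -3.32, adjusted p = 9.03e-06). Ifi209 (-3.11), Ifi204 (-1.38) and Ifi203 (-1.26) of the same family also fell. Ifit1, which binds viral RNA and blocks its translation, was at 11.87, 11.80 and 11.43 in control and at 8.82, 8.81 and 8.48 with LCN13 shRNA, 8.01-fold lower (change -3.00, SE 0.13, adjusted p = 8.17e-06). Ifit2 fell by 2.25 log2, whereas Ifit3 at 6.94, 6.76 and 7.19 against 6.52, 6.30 and 6.49 did not pass (adjusted p = 0.0846). The groups of Ifit3 do not overlap, and its level is low on every array.

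Among Schlafen genes, Slfn4 was at 8.03, 10.52 and 8.88 in control and at 6.34, 6.16 and 6.11 with LCN13 shRNA. The controls of this gene are far apart, and its decrease (change -2.94, SE 0.48, adjusted p = 0.0181) missed the threshold without any 1 of the LCN13 arrays (adjusted p up to 0.0722). Slfn1 (-2.70), Slfn8 (-1.57) and Slfn5 (-0.79) were lower too. Members of the Oas, Ifi200, Schlafen and Trim30 families have similar sequences and may share probe signal, so single members are uncertain.

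Of the remaining effectors, the tripartite motif genes Trim30a (-2.47), Trim30d (-2.33) and Trim25 (-0.73) fell. Trim25 is a ubiquitin ligase that activates the RNA sensor RIG-I. Mx2 (-2.20) and Mx1 (-1.72), GTPases that trap viral components, fell from levels between 7.22 and 8.74 to between 5.81 and 6.21, which is near or within the range of the olfactory receptors. Rsad2 (viperin, -1.96), Cmpk2 (-2.01), Rtp4 (-2.20), Xaf1 (-1.18), Ifi35 (-1.17), Bst2 (tetherin, which holds budding viruses at the cell surface, -1.02) and Eif2ak2 (the kinase PKR, which halts translation, -1.31) fell as well. Parp14 (-1.29), the partners Parp9 (-0.73) and Dtx3l (-0.74), Ifitm3 (-0.56) and Samhd1 (-0.42) were lower too. Ifitm3, a membrane protein that blocks virus entry, stayed among the brightest genes, at 13.56, 13.66 and 13.62 against 13.09, 13.08 and 13.00.

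The interferon-induced GTPases of the Gbp and Irg families, which attack membranes around intracellular pathogens, fell less firmly. Irgm1 fell by 1.19 log2 (adjusted p = 0.00145), while Igtp (-0.91), Gbp7 (-0.77) and Gbp3 (-0.59) lost their calls in 10, 11 and 8 of the 12 fits without 1 array (adjusted p up to 0.166). Gbp2, at -0.29, did not pass (adjusted p = 0.191). Ifi27l2a, at 10.16, 10.60 and 10.42 in control and 9.67, 9.31 and 9.82 with LCN13 shRNA, just missed the threshold (change -0.79, adjusted p = 0.0523).

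**Figure D2:**
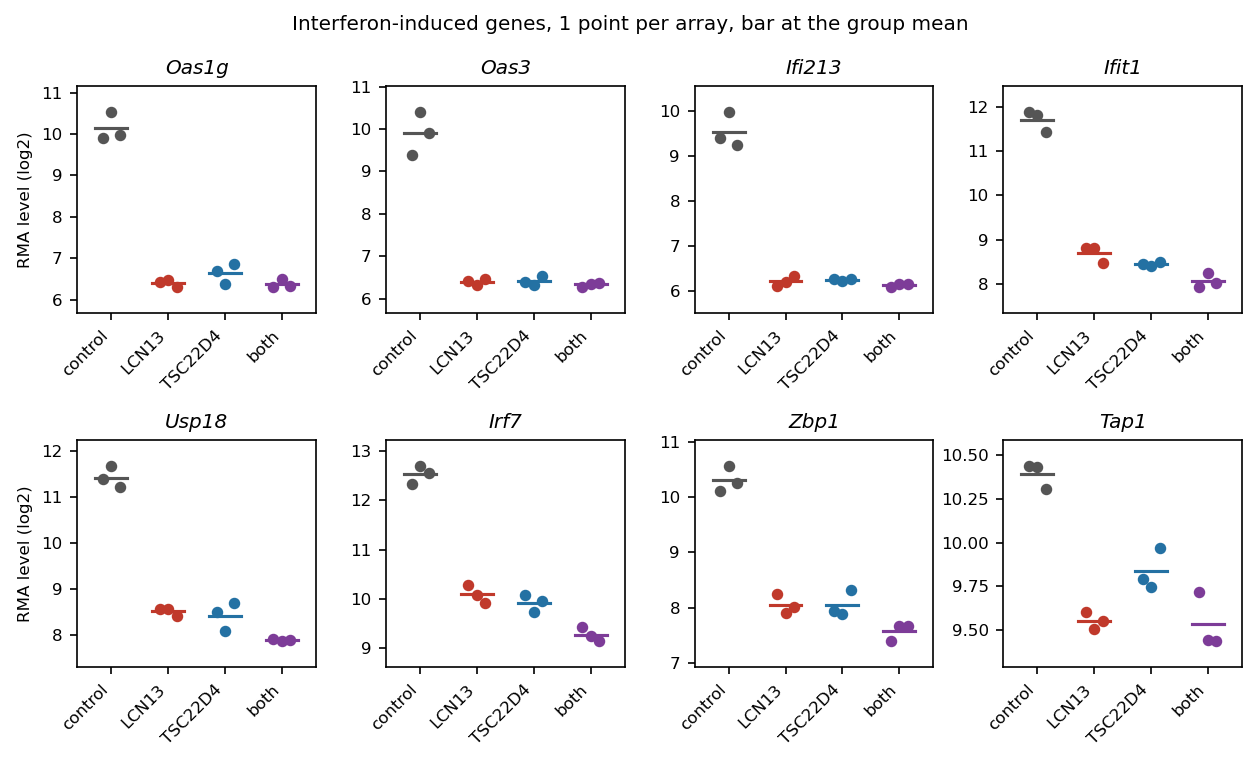
RMA level (log2) of 8 interferon-induced genes on each of the 12 arrays, with a bar at the mean of each group. In all 8 panels the 3 control arrays lie above the 9 arrays that received a gene-directed virus, as for Oas1g with 9.90 to 10.53 in control and 6.32 to 6.48 with LCN13 shRNA.

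Of 14 sensors and transcription factors, 8 fell and 1 rose (1.04% and 0.397% of all genes did), with a median change of -0.69. All 3 helicases that sense viral RNA in the cytosol were lower. Ddx58, which codes for RIG-I, fell from 12.00, 12.24 and 12.04 to 10.92, 10.83 and 10.76 (change -1.26, SE 0.06, adjusted p = 9.92e-06). Ifih1, which codes for MDA5, fell (change -1.46), as did Dhx58, the regulator LGP2 (change -2.36). Zbp1, a sensor of unusual nucleic acid helices that can start cell death, fell by 2.26. Tlr3, the receptor for double-stranded RNA in endosomes, fell by 0.61 with tight groups, from 11.36, 11.43 and 11.38 to 10.77, 10.84 and 10.73. Tlr7 was 10.82, 11.27 and 11.42 against 10.54, 10.50 and 10.23 and did not pass (change -0.75, adjusted p = 0.0711). The DNA sensor Cgas did not pass either and lay at 5.90 to 6.18.

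Irf7, which drives the type I interferon genes, fell from 12.33, 12.69 and 12.55 to 10.28, 10.08 and 9.93, 5.38-fold lower (change -2.43, SE 0.13, adjusted p = 1.8e-05). Stat2 (-1.64) and Irf9 (-0.62), transcription factors that carry the interferon signal to the nucleus, fell too. Irf3, which starts interferon production and is itself known to be present before infection, rose from 9.12, 9.11 and 9.04 to 9.35, 9.45 and 9.29 (change 0.28, SE 0.04, adjusted p = 0.00917). This call held in all 12 fits without 1 array. It was lost without replicates 5 and 6 together, which leaves 1 LCN13 array and a change of 0.20. Irf1 did not pass (change -0.18, adjusted p = 0.569).

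ISG15 is a ubiquitin-like protein that is attached to other proteins during the interferon response. Of the 6 genes of its pathway 4 fell (1.04% of all genes did), with a median of -0.98. These were the activating enzyme Uba7 (-0.99), the conjugating enzyme Ube2l6 (-0.97), Herc6, its main ligase in mice (-1.82), and Usp18. Usp18 removes ISG15 and also dampens signalling at the interferon receptor. It lay at 11.38, 11.66 and 11.20 in control and at 8.57, 8.57 and 8.41 with LCN13 shRNA, 7.47-fold lower (adjusted p = 1.8e-05). Isg15 itself, at 6.06, 6.30 and 6.08 against 5.90, 5.82 and 5.88, lay close to the olfactory receptors' range on this array and did not pass (adjusted p = 0.0565). Isg20, an exonuclease, did not pass at -0.47 (adjusted p = 0.203).

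The interferons and their receptors did not follow. Of 12 measured genes for interferons, receptors and Jak kinases, 0 passed, and their median change was 0.01. Ifna4, at 6.60, 6.53 and 6.57 against 6.62, 6.94 and 6.68, moved most (0.18, adjusted p = 0.446). The kinase Tyk2 was at -0.09, the feedback inhibitor Socs1 at -0.07 and the interferon-gamma receptor chain Ifngr1 at -0.04, with groups that overlap in all 3. Named after their values were seen, Ifnb1 had means of 5.74 and 5.73 and Ifng of 5.98 and 5.98, within the range of the olfactory receptors, so their part cannot be read here.

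Antigen presentation fell in part. Of 16 genes, 6 were lower (1.04% of all genes were) and 0 higher, with a median change of -0.24. Nlrc5, the transactivator of class I genes, fell from 9.21, 9.28 and 9.26 to 8.22, 8.27 and 8.11 (change -1.05, SE 0.08, adjusted p = 0.000109). The peptide transporter Tap1 fell by 0.83 (adjusted p = 0.000813) and its partner Tapbp by 0.37 (adjusted p = 0.00177). The immunoproteasome subunits Psmb9 (-1.01), Psmb8 (-0.89) and Psmb10 (-0.31) lost their calls in 8, 3 and 7 of the 12 fits without 1 array, with adjusted p up to 0.118. The proteasome activator genes Psme1 (-0.30) and Psme2 (-0.21) did not pass, nor did Tap2 (-0.28). The class II gene H2-Aa, at 0.17, did not pass either.

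Of 14 chemokine genes 0 passed, 13 were negative and the median change was -0.15. Cxcl10, which draws T cells and is known to be induced by interferon, was 8.61, 8.70 and 8.40 in control and 8.01, 7.90 and 7.16 with LCN13 shRNA (change -0.88, adjusted p = 0.0873). Its groups do not overlap, and without replicates 5 and 6 its change was -1.41. Ccl3 (-0.57), Ccl5 (-0.37) and Ccl7 (-0.36) had wider spreads. Among 5 Fc gamma receptor genes, the activating receptors for IgG Fcgr1 and Fcgr4 fell, where 1.04% of all genes did. Fcgr1 went from 10.51, 11.41 and 11.08 to 9.20, 9.09 and 9.20 (change -1.84, SE 0.23, adjusted p = 0.00353), and Fcgr4 from 9.27, 10.06 and 9.91 to 8.14, 8.20 and 7.81 (change -1.70, adjusted p = 0.00461). Neither passed on replicate 8 alone, the LCN13 array left without replicates 5 and 6. The inhibitory receptor Fcgr2b (0.04), Fcgr3 (-0.18) and the shared signalling chain Fcer1g (-0.13) did not pass.

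The interferon lists held only part of the genes that fell: 192 of the 241 lay outside them, 42 of these at least 2-fold lower. The lists are a selection, so lying outside them does not place a gene outside the interferon response. Named after their values were seen, examples are Siglec1, a sialic acid receptor of macrophages, which fell from 11.99, 12.51 and 12.44 to 10.83, 10.82 and 10.21 (change -1.69, adjusted p = 0.00475), and Ms4a4c (-2.17). The helicase gene Ddx60 fell by 1.78, the ubiquitin ligase gene Rnf213 by 1.40, the nuclear body gene Sp100 by 1.00, the galectin gene Lgals9 by 0.95 and the RNA-editing enzyme gene Adar by 0.92. Each of these 7 kept its call in all 12 fits without 1 array.

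Markers of immune cells were read beside these decreases, since in whole tissue fewer cells of a type and less RNA per cell cannot be told apart. Of 9 macrophage markers, Lpl and Cd9 among them, 0 passed, 7 were negative and the median change was -0.10. Adgre1, a surface receptor of macrophages, lay at 11.57, 11.88 and 11.77 against 11.52, 11.55 and 11.49 (change -0.22, adjusted p = 0.3). Of 9 T and NK cell markers 2 fell (1.04% of all genes did), the cytotoxic granule protease Gzmb (-0.43, adjusted p = 0.00851) and the NK receptor Klrk1 (-0.38, adjusted p = 0.0088). Nkg7 (-0.72) and Gzma (-0.30) did not pass. Gzmb and Klrk1 are dim, with 6.23 to 6.49 in control and 5.91 to 6.03 with LCN13 shRNA. The median change was -0.05 for T and NK cells, 0.13 for B and plasma cells and -0.06 for neutrophils, and 0 of the markers passed in the latter 2 lists. The part of these cells in the decreases was not tested.

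Few metabolic genes passed. Pyruvate dehydrogenase, fatty acid uptake, oxidation and synthesis, triglyceride synthesis, lipolysis, insulin signalling, adipokines and NAD were covered by 9 lists with medians between -0.10 and 0.05. Of their 93 distinct measured genes 4 fell (4.3%, against 1.04% of all genes) and 0 rose. Pdk4, a kinase that shuts off pyruvate dehydrogenase when fat is burned, fell from 11.57, 11.19 and 11.38 to 10.77, 10.63 and 10.39 (change -0.78, SE 0.14, adjusted p = 0.0269). Acacb makes the malonyl-CoA that holds back fatty acid entry into mitochondria, and it fell from 9.59, 9.32 and 9.05 to 8.75, 8.68 and 8.41 (change -0.70, adjusted p = 0.0325). These 2 are the least firm, with calls lost in 5 and 9 of the 12 fits without 1 array (adjusted p up to 0.0867 and 0.107).

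Slc27a1, the fatty acid transporter FATP1, fell from 11.19, 11.25 and 11.24 to 10.90, 10.91 and 10.84 (change -0.35, SE 0.04, adjusted p = 0.00285). Nampt, the rate-limiting enzyme of NAD salvage that fat cells also secrete, fell from 11.03, 11.02 and 10.80 to 10.52, 10.49 and 10.49 (change -0.45, SE 0.06, adjusted p = 0.00636). Both kept their calls in all 12 fits without 1 array. They lost them without replicates 5 and 6 together, which leaves 1 LCN13 array. Among genes that did not pass, Srebf1, the transcription factor of fatty acid synthesis, was at 0.25 and Pck1, an enzyme of glyceride-glycerol synthesis in fat, at 0.54. Irs2, an adaptor of the insulin receptor, was at 0.38 and the glucose transporter Slc2a4 at -0.22. Dgat2, Pnpla2 and Retn, a triglyceride-making enzyme, a lipase and an adipokine, were within 0.17 of 0.

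**Figure D3:**
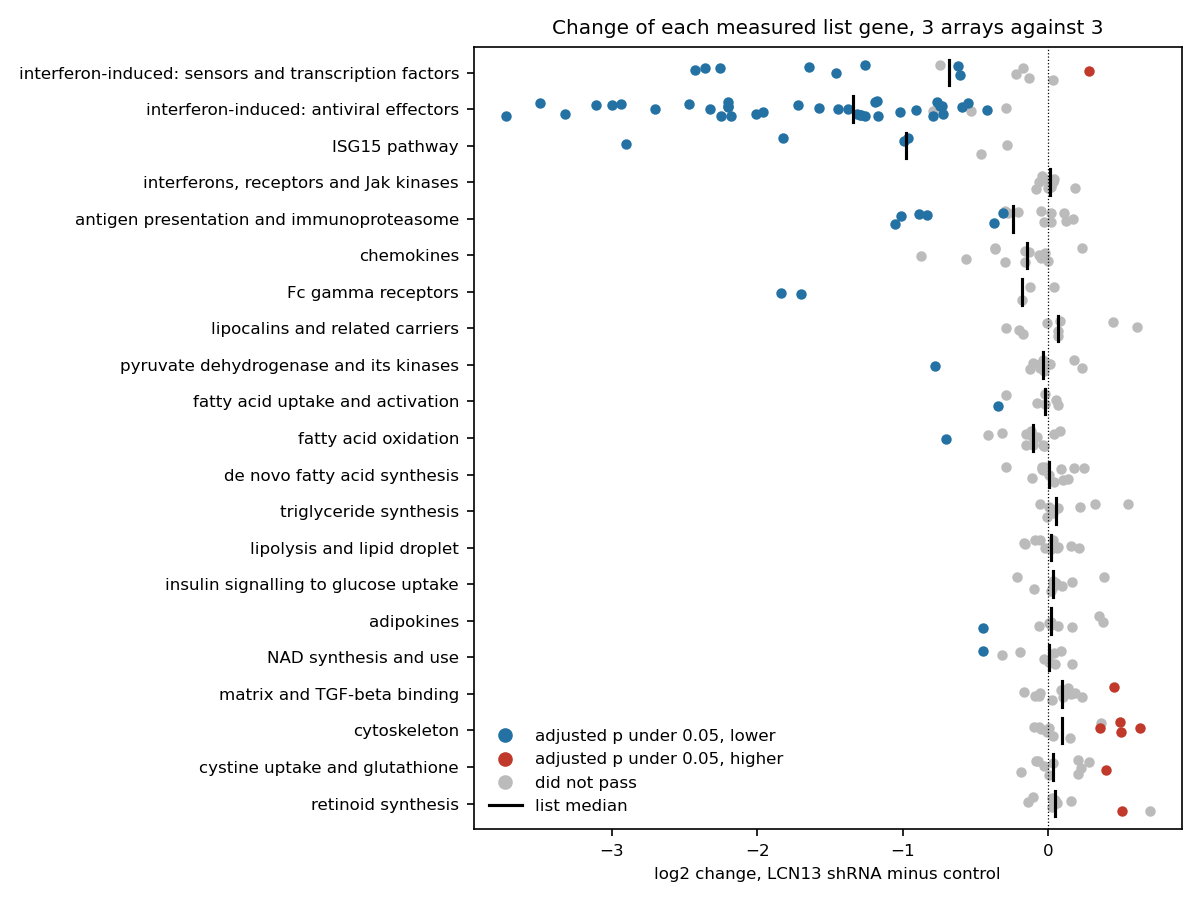
Log2 change with LCN13 shRNA (x axis) of each measured gene of 21 lists (rows), coloured by whether it passed, with a black bar at the median of each list. Decreases crowd the 3 upper rows, with medians of -0.69, -1.35 and -0.98, while the medians of the metabolic rows lie between -0.10 and 0.05.

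The genes that rose changed less, with no change above 0.67 log2, and fall into no single list. Of 12 cytoskeletal genes 4 rose and 0 fell, where 0.397% of all genes rose. Without replicates 5 and 6, the arrays with raised mesothelial markers, the median change of the 12 was 0.13, against 0.09 with them. That median mostly describes the 8 genes that did not pass. Podxl, a sialomucin of the cell surface linked to actin, rose from 9.28, 9.04 and 9.01 to 9.62, 9.62 and 9.57, 1.41-fold (change 0.49, SE 0.07, adjusted p = 0.00872). Desmin, the intermediate filament gene Des, rose from 9.24, 9.21 and 9.30 to 9.64, 9.62 and 9.56 (change 0.36, adjusted p = 0.00398). With the 6 compared arrays alone Podxl did not pass (adjusted p = 0.104). Podxl and Des kept their calls in all 12 fits without 1 array. Both lost them without replicates 5 and 6 together, which leaves 1 LCN13 array, where the change of Podxl was 0.46. Map1b, a microtubule-binding protein, rose from 9.48, 9.46 and 9.71 to 10.33, 10.19 and 10.03 (change 0.63, adjusted p = 0.0276). It missed the threshold without control replicate 1 or 2 or LCN13 replicate 5 or 6. The actin-binding profilin gene Pfn2 (0.50) did so without control replicate 2 or LCN13 replicate 5 or 6. Without replicates 5 and 6 together, the change was smaller for both, 0.48 for Map1b and 0.42 for Pfn2. The part of the mesothelial difference in these increases was not tested.

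Further increases were spread over many functions. Tcf21, a transcription factor of the mesenchyme, rose from 6.56, 6.72 and 6.57 to 7.02, 6.96 and 7.00 (change 0.38, SE 0.05, adjusted p = 0.00499), and Gxylt2, a xylosyltransferase that modifies Notch, from 8.17, 8.05 and 7.98 to 8.54, 8.59 and 8.51 (change 0.48, adjusted p = 0.00589). With the 6 compared arrays alone neither passed (adjusted p = 0.066 and 0.0514), but both held in the 12 fits without 1 array. The 8 fibroblast and preadipocyte markers had means of 10.24, 10.29 and 10.04 in control and of 10.41, 10.37 and 10.40 with LCN13 shRNA, without overlap. Of these 8 markers 0 passed, their median change was 0.19, and their part in the increases was not tested. The matrix gene Ltbp4, which stores latent TGF-beta (0.45), and the cystine transporter gene Slc7a11 (0.39) were lost in 3 and 2 of those fits. Cd209a, a lectin of dendritic cells, rose by 0.64 (adjusted p = 0.0353), and the retinaldehyde dehydrogenase gene Aldh1a3 by 0.50 (adjusted p = 0.0413). Their calls were lost in 9 and 10 of the 12 fits without 1 array, with adjusted p up to 0.127 and 0.135. The phosphatase gene Dusp14 (0.45), Tatdn1 (0.44), the Polycomb gene Pcgf6 (0.39), the GABA transaminase gene Abat (0.38), Zfp462 (0.38) and Kxd1 (0.38) passed as well, but lost their calls in 6, 6, 4, 11, 9 and 10 of those 12 fits. With Map1b, Podxl, Pfn2, Tcf21 and the others above they make up the 15 largest increases named here. Without replicates 5 and 6 the change of Cd209a was 0.88. Its call was lost with the 6 arrays alone (adjusted p = 0.213) and with array weights (adjusted p = 0.075). Rspo1, one of the mesothelial markers that stand out on replicates 5 and 6, was at 8.35, 8.35 and 9.01 in control. It lay at 9.63, 9.72 and 9.10 with LCN13 shRNA and did not pass (adjusted p = 0.0829).

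**Figure D4:**
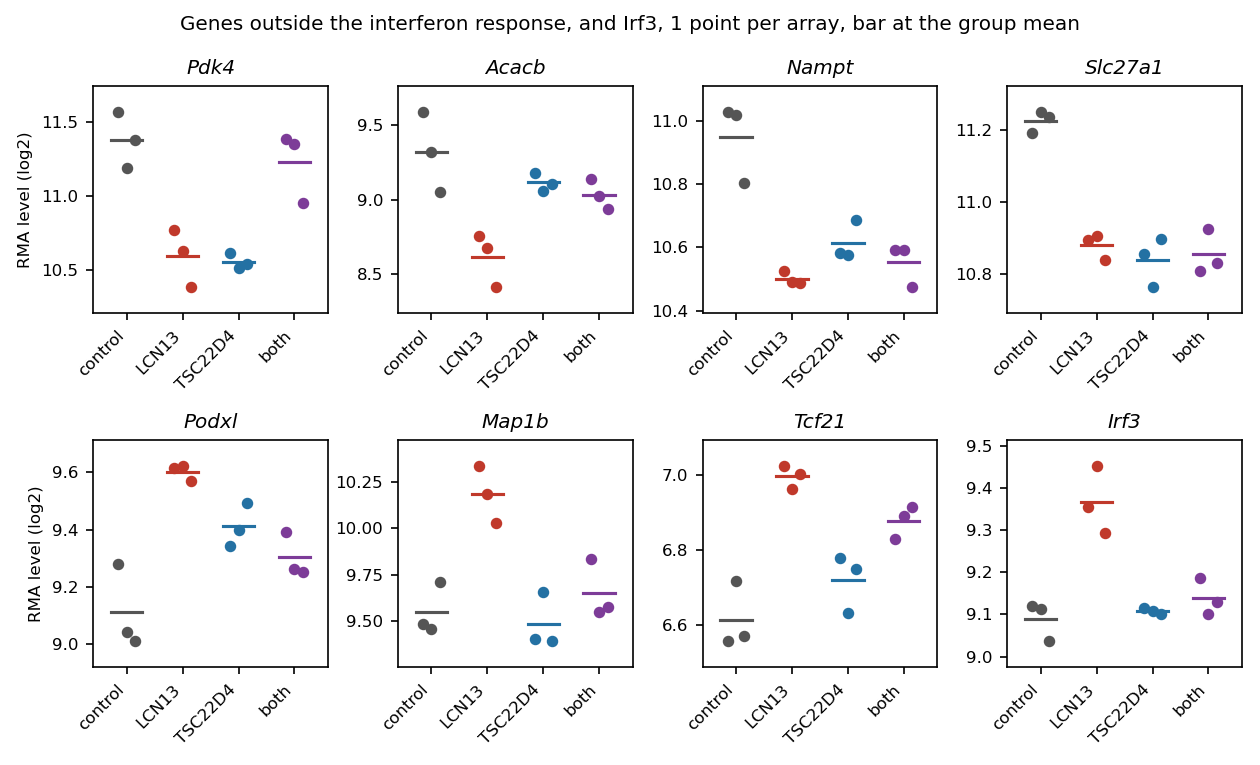
RMA level (log2) of 8 further genes on each of the 12 arrays, with a bar at the mean of each group. Pdk4, Acacb, Nampt and Slc27a1 are lower and Podxl, Map1b, Tcf21 and Irf3 higher on all 3 LCN13 arrays than on all 3 control arrays. The 3 LCN13 arrays of Pdk4 sit at 10.77, 10.63 and 10.39, below control arrays at 11.57, 11.19 and 11.38.

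The TSC22D4 group received the same amount of control virus as the LCN13 group, so the comparison of these groups holds the amounts of virus constant. Its LCN13 arrays are those used above. Of the 60 interferon and ISG15 genes, 0 fell, 1 rose (1.03% of all genes passed in either direction, 133 or 0.574% higher and 106 or 0.457% lower) and the median change was -0.0042. Their mean level in the TSC22D4 group was 8.84, 8.77 and 8.94, which overlaps the LCN13 values of 8.84, 8.82 and 8.82. Oas1g differed between the 2 groups by -0.23 (adjusted p = 0.503), Irf7 by 0.17 (adjusted p = 0.519) and Fcgr1 by -0.27 (adjusted p = 0.576). Irf3 was the gene that rose, by 0.26 (adjusted p = 0.0356). Against control, which both comparisons share, the same 60 genes had medians of -1.27 with LCN13, -1.35 with TSC22D4 and -1.36 with both viruses. With TSC22D4 48 of them fell (0.88% of all genes did), and with both viruses 47 did (1.03%).

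Among the genes that rose with LCN13 shRNA against control, Map1b was 0.70 (adjusted p = 0.036), Tcf21 0.28 (adjusted p = 0.0413) and Gxylt2 0.36 (adjusted p = 0.0402) higher than with TSC22D4 shRNA, while Podxl was at 0.19 (adjusted p = 0.211). Acacb was at -0.50 and did not pass (adjusted p = 0.0987), and Pdk4, Nampt and Slc27a1 were at 0.04, -0.11 and 0.04. The largest increases over TSC22D4 were those of the glutathione transferases Gstt1 (0.83) and Gsta4 (0.70), the kinase inhibitor Camk2n1 (0.76), Ivns1abp (0.74) and the glycine transporter Slc6a9 (0.71). The largest decreases were in the immunoglobulin variable genes Igkv4-70 (-2.06), Igkv5-43 (-1.83) and Igkv4-73 (-1.79), the glycogen synthase gene Gys2 (-1.74) and the proteoglycan gene Ncan (-1.72). Markers of the epididymis and seminal tract, which lie next to some abdominal fat, had a mean of 6.72 and 6.32 on TSC22D4 replicates 10 and 11 and of 5.84 to 5.93 on the other 10 arrays.

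The number of calls in the comparison with TSC22D4 rested on single arrays. Of 239 genes, 2 to 8 passed when any 1 of LCN13 replicate 5 or 6 or the 3 TSC22D4 arrays was left out. The count was 582 without LCN13 replicate 8 and 73 without replicate 13 of the combined group. Samd9l and Kptn were the 2 genes that passed in all 12 fits without 1 array, and were named for it. Samd9l, an interferon-induced inhibitor of viruses, formed a step, with 9.63, 9.62 and 9.62 in control, 8.98, 8.97 and 8.97 with LCN13 and 8.40, 8.47 and 8.52 with TSC22D4. It was 0.51 higher with LCN13 than with TSC22D4 shRNA (SE 0.04, adjusted p = 0.00483) and 0.65 log2 lower than in control (change -0.65). Kptn, part of a complex that restrains mTORC1, was at 7.00, 6.90 and 7.00 with LCN13 and at 7.37, 7.31 and 7.38 with TSC22D4 (change -0.38, adjusted p = 0.00795).

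The LCN13 virus was also given on top of the TSC22D4 virus, in place of the remaining control virus, on arrays that the comparison with control did not use. There 0 genes passed (0%), with 1602 at an unadjusted p under 0.05 in limma. The smallest p-values were those of Szrd1 (-0.29), the transcription factor Gabpa (0.19) and Rtp4 (-0.72), each at an adjusted p of 0.366. Rtp4 lay at 8.61, 8.37 and 8.69 with TSC22D4 shRNA and at 7.75, 7.82 and 7.95 with both, so its groups did not overlap. Of the 60 interferon and ISG15 genes 47 were negative, with a median of -0.12 and mean levels of 8.73, 8.76 and 8.67 against 8.84, 8.77 and 8.94. Irf7 was at -0.65 and Usp18 at -0.53, and neither passed. Of the 241 genes lower with LCN13 shRNA against control, 184 were negative here (76.3%, against 46.1% of all genes), with a median of -0.07. Of the 92 higher genes 73 were positive (79.3%, against 53.8% of all genes), with a median of 0.07. Pdk4 stood at 0.67 (adjusted p = 0.366), Acacb at -0.08, Map1b at 0.17 and Tcf21 at 0.16.

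**Figure D5:**
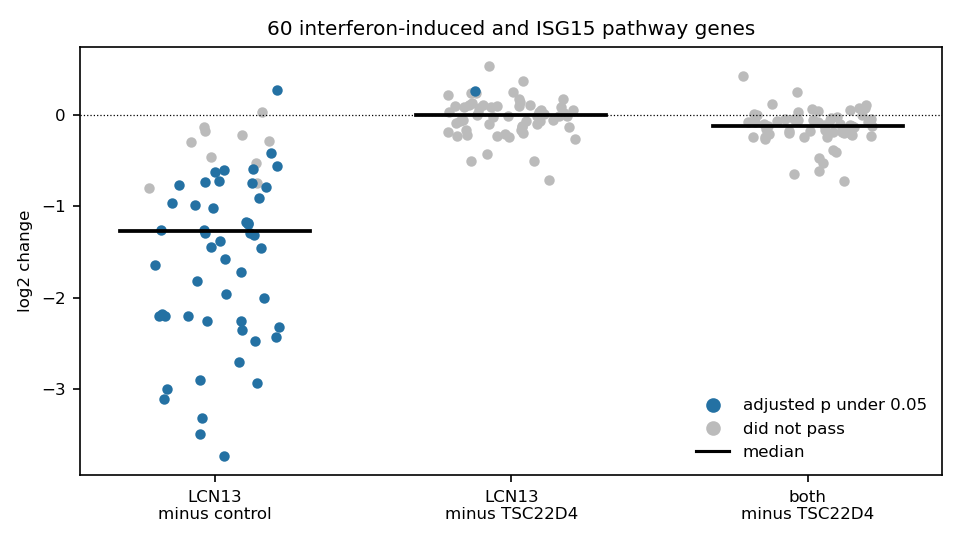
Log2 change (y axis) of the 60 interferon-induced and ISG15 pathway genes in 3 comparisons (x axis), 1 point per gene, blue where it passed, with a bar at the median. The medians are -1.27 for LCN13 against control, -0.0042 for LCN13 against TSC22D4 and -0.12 for both viruses against TSC22D4.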

How the data were processed

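Abdominal fat RNA of 12 mice was measured on Affymetrix arrays, 3 per group. The authors deposited log2 values, 1 per probe set and array, computed with RMA per the submitters' processing notes. RMA corrects background, normalizes between arrays and summarises probes. Its version, like the probe set definitions, is not given in the sources used here. After sorting, no 2 columns were more than 0.00188 apart, so all arrays have 1 distribution, which removes shifts common to most genes and compresses low levels. The number of arrays limits the precision. Nothing states shared batches, and the labels describe separate animals.

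Of 25206 probe sets 23185 had 1 symbol in the platform annotation, 0 several and 2021 none. Symbols were checked in a GRCm38.p6 gene table. Linear models were fitted to all 12 arrays with 4 group means in limma 3.58.1 under R 4.3.3 (8 residual and 1.38 prior degrees of freedom, median residual SD 0.0647), two-sided, with no filter, and were tested on simulated data. Tables used Python 3.11.15 and pandas 2.3.3. The members, lists and alternatives were chosen with earlier results of these data known. Named are the 15 largest changes in each direction that passed with groups that do not overlap (5 in the comparison with TSC22D4, the 3 smallest p where none passed), leaving out predicted genes, RNA genes and pseudogenes, both shRNA targets, passing list members and up to 4 others a list. Of 361 list genes 343 were measured, Ddx58 standing for Rigi. Alternatives were the 6 compared arrays alone, array weights, a trended robust prior, leaving out dim probe sets (mean below the median), cyclic loess, leaving out arrays, and averaging LCN13 replicates 5 and 6, the most alike pair, as 1 sample.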

Additional observations from a re-analysis of the deposited data

Results flagged for a closer look

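The LCN13 change was not the same with and without the TSC22D4 virus. A test of the difference itself (limma, the change against control minus that on top of TSC22D4 shRNA), chosen after the data were seen, passed for 92 of 23185 genes (0.397%), of which 85 had the more negative change against control and 7 the more positive. Of the 60 interferon and ISG15 genes 35 passed, with a median difference of -1.21. Without the LCN13 virus, their mean level was already 8.84, 8.77 and 8.94 in the TSC22D4 group, against 10.20, 10.47 and 10.16 in control. The part of this lower start, and of compression near the lower end of the scale, in the difference was not tested. The control virus fell from 4e9 to 2e9 units in the first comparison and from 2e9 to 0 in the second, so the presence of the TSC22D4 hairpin and the starting amount of control virus cannot be told apart.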

How the results depend on the processing

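The count of genes passing against control (333) was 307 to 351 under a trended robust prior, without dim probe sets and with cyclic loess. The count was 102 with the 6 arrays alone, 680 with array weights, 100 without LCN13 replicates 5 and 6 and 196 with these averaged, and ranged from 205 to 426 without 1 array (205 without LCN13 replicate 5, 209 without replicate 6, 211 without control replicate 2). The split was 27.6% higher, 12.4% with the trended prior, 14.7% with the 6 arrays alone, 39.9% with array weights and 16.5% with cyclic loess. Against TSC22D4 the count of 239 (55.6% higher) was 75 with 6 arrays and 1178 with array weights. It was 5 with LCN13 replicates 5 and 6 averaged and 2 to 582 without 1 array. The share higher was 42.6% with cyclic loess and 42.3% with the trended prior. Added to TSC22D4 shRNA, 0 passed under all other settings except 1 without TSC22D4 replicate 11 and 4 without replicate 16 of the combined group. The sign of the change turned for Tsc22d4 with array weights (0.0033), without control replicate 3 (0.0835) and without LCN13 replicate 5 (0.0249), within a range of -0.0708 to 0.0835 without 1 array. It turned for Fcgr2b without control replicate 1 (-0.0410) and without LCN13 replicates 5 and 6 (-0.0734), within a range of -0.0410 to 0.1067 without 1 array. In named genes that passed against control, 44 of 92 calls were lost with the 6 arrays alone. No count is given without LCN13 replicates 5 and 6, since that leaves 1 LCN13 array. The causes were not tested. No paired analysis was possible because the groups share no replicate numbers.

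The groups are limited to 3 selected animals each, the knockdown could not be checked, and the LCN13 group had less control virus. Values are compressed near the lower end of the scale, where Isg15, Mx1 and Obp2a lie.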
